A study of Arabidopsis thaliana with 14 samples.

Results

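Histone H4 genes of Arabidopsis thaliana were examined in 14 libraries of poly(A)+ RNA from immature flower buds. The members were chosen by locus identifier, as the 8 loci that encode the single H4 protein of the plant, out of 37336 genes in the files. They are AT1G07660, AT1G07820, AT2G28740, which carries the RefSeq symbol HIS4, AT3G45930, AT3G46320, AT3G53730, AT5G59690 and AT5G59970. All 8 had counts in every library and passed the filter on low counts in every fit. The study compared wild-type Columbia plants with the mutant aly1-2, which carries an allele of ALY1 (AT5G59950). Total RNA was sequenced from 3 libraries of each genotype, and nuclear and cytoplasmic RNA from 2 libraries of each genotype and fraction. All groups were inflorescence tissue of floral stages 1 to 12 in the Columbia background, from plants grown in long days. The labels do not say what kind of mutation the allele is, how many plants went into a library, or whether replicates came from separate plants, so p-values measure only the spread between these libraries.

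H4 pairs with H3 in the core of the nucleosome, around which DNA is wound together with H2A and H2B. Most core histone protein is made in S phase, when newly copied DNA has to be packed, and cells of young flower buds divide often. In plants, histone mRNAs carry a poly(A) tail, so poly(A) selection keeps them, unlike most replication-dependent histone mRNAs of animals. ALY proteins are adaptors that bind mRNA in the nucleus and help to hand it to the export machinery.

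The deposited estimated counts summed to between 7230995 and 12736374 per library. Ribosomal RNA genes took 49.44% to 60.5% of the cytoplasmic counts and 3.64% to 6.92% of the total counts. Plastid genes took 15.16% to 20.29% of the cytoplasmic counts, 8.56% to 11.25% of the nuclear and 5.01% to 6.77% of the total counts. Outside rRNA, plastid and mitochondrial genes, 2101595 to 3240469 counts were left in each cytoplasmic library, against 6210900 to 9177258 in the nuclear ones. The first wild-type nuclear library stood apart, where 1733 genes that no total library detected had a count; the remaining nuclear libraries had 621 to 887 such genes. In CPM (a gene's count as a share of the library's counts, per 1000000) after scaling by the trimmed mean of M-values (TMM) among the total libraries, ALY1 stood at 105, 112 and 119 in wild type and at 14.1, 20.2 and 18.0 in aly1-2. Its log2 fold change was -2.69 (SE 0.15, adjusted p = 0.000319) in total RNA, -2.99 (SE 0.38, adjusted p = 0.0121) in nuclear RNA and -1.52 (SE 0.37, adjusted p = 0.369) in cytoplasmic RNA. The 6 flower bud markers AP1, AP3, PI, AG, SEP3 and LFY had counts in every library.

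The 8 genes encode a single protein sequence of 103 residues from 312 coding bases in 1 coding exon each. Their DNA differs, mostly at the third bases of codons: 36 of the 43 coding differences between AT1G07660 and AT5G59690, for example, were third-position differences. The first 90 coding bases are shown 5′ to 3′ because they let the copies be told apart while the protein stays the same. Capitals mark bases that differ from AT5G59690, the copy with the highest level in wild-type total RNA. The sequences were read from the RefSeq genome (TAIR10.1).
AT1G07660: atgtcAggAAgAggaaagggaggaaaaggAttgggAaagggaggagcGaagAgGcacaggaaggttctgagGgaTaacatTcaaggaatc
AT1G07820: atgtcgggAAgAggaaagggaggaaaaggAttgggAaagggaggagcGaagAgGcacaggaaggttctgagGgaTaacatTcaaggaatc
AT2G28740: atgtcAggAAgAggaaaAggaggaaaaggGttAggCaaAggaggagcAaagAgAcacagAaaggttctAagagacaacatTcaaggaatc
AT3G45930: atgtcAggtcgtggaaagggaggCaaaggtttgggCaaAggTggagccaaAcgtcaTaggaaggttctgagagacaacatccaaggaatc
AT3G46320: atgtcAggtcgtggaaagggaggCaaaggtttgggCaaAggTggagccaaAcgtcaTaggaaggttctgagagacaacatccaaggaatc
AT3G53730: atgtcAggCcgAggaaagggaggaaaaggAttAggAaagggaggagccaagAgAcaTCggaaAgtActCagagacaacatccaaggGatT
AT5G59690: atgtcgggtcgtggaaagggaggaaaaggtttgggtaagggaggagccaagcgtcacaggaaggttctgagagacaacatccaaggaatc
AT5G59970: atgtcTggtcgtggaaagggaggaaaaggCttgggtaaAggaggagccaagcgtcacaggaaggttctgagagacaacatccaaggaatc
Over all 28 pairs, coding identity ran from 78.8% to 98.1%. The closest pairs were AT1G07660 with AT1G07820 (98.1%, 6 differing bases), AT3G45930 with AT3G46320 (97.4%, 8 bases) and AT5G59690 with AT5G59970 (97.1%, 9 bases), and no other pair was above 87.8%. Each of these pairs lies on a single chromosome, with 51.4, 135.8 and 93.6 kb between its genes. The longest identical stretch was 147 bases, in the pair of chromosome 3. AT2G28740 and AT3G53730 have no such close partner.

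Identical stretches bear on the counts, since a read inside them can come from either copy. The deposited values were fractional in many libraries, and the sources used here do not give the rule for reads that align to more than 1 place. AT3G45930 had a whole-number value in 2 of 14 libraries, and AT1G07660 and AT1G07820 in 4 each. AT3G53730, by contrast, had whole values in 11 of 14. AT5G59690 and AT5G59970, a close pair, had whole values in 9 libraries each, as did AT2G28740, which has no close partner. How far shared reads moved the level of any copy was not tested.

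The copies also differ in annotated structure. AT3G53730 lies on chromosome 3 at chr3:19912385-19913515 on the minus strand (TAIR10.1), with the longest summed exon length of the 8, 1131 bases, and 545 bases between its annotated start and its first codon. AT5G59690 lies at chr5:24051474-24052218 on the plus strand, with 745 exon bases and 175 bases before its first codon. The other copies had 644 to 978 exon bases and 66 to 379 bases before the first codon. Annotated introns, all outside the coding exon, were found in transcripts of AT1G07660, AT1G07820 and AT5G59970, and none in the other 5 genes.

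Plant histone promoters are known for short shared elements, among them the octamer CGCGGATC. Both strands of the window from 250 bases before to 50 bases after the annotated start of each gene were searched for it, for the hexamer ACGTCA and for the E2F-type letters TTTCCCGC. The octamer was found in 2 of 8 H4 windows, in AT5G59690 from base -71 and in AT1G07660 from base -126, against 0.146% of 27443 gene windows of the same length. The hexamer was found in 1 of 8, AT1G07820, from base -4, against 9.19% of windows, and the E2F-type letters in 0 of 8, against 0.798%. AT3G53730 was the single copy called between nucleus and cytoplasm. The 250 bases upstream of both octamer genes, and of AT3G53730, are shown 5′ to 3′ on the gene's strand with the octamer in capitals. They span chr5:24051224-24051473 (plus), chr1:2368583-2368832 (plus) and chr3:19913516-19913765 (minus) of TAIR10.1.
AT5G59690: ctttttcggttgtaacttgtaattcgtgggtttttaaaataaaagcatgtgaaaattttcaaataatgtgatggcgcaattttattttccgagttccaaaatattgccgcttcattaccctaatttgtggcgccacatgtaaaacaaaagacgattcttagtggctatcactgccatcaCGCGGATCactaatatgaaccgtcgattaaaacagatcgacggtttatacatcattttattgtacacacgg
AT1G07660: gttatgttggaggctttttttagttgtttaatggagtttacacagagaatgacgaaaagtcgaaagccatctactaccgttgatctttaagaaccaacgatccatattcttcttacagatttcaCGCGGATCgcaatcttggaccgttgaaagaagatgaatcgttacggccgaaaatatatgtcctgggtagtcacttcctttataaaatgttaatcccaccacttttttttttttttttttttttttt
AT3G53730: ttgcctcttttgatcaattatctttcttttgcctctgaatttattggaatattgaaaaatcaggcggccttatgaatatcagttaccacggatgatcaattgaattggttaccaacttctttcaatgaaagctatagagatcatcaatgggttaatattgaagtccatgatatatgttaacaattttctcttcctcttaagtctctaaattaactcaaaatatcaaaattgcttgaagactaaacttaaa
A match is only a description of these letters, and windows depend on the annotated start. The upstream stretches of AT3G45930 and AT3G46320 differed at only 3 of 250 bases, shown here in capitals because this pair shares nearly all of its upstream stretch as well as its coding sequence. They span chr3:16883066-16883315 (plus) and chr3:17020429-17020678 (minus).
AT3G45930: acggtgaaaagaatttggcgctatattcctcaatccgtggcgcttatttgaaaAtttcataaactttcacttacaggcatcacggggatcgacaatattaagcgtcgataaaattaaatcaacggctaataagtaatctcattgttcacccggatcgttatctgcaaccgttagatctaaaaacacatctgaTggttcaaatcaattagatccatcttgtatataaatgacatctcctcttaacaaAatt
AT3G46320: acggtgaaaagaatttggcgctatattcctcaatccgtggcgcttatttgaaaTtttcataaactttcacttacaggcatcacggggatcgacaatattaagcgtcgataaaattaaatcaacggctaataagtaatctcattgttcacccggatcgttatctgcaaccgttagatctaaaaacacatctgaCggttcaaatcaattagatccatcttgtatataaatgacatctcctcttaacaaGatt
Over the whole 300-base window, this pair was 98.7% identical without gaps, while no other pair of the 8 was above 34.7%.

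Levels of the 8 copies were set side by side per length of exon, as TMM-scaled CPM per kb on a scale shared by all 14 libraries. In wild-type total RNA, AT5G59690 was highest at 157 ± 10.9 CPM per kb (SD, n = 3). AT1G07820 followed at 102 ± 8.58 and AT2G28740 at 84.2 ± 9.49. The 3 libraries of each of these genes did not overlap those of the next gene in the order. AT3G46320 at 44.2 ± 5.12, AT3G53730 at 42.3 ± 3.13 and AT1G07660 at 37.6 ± 2.74 each overlapped the next gene, which for the last of them was AT3G45930 at 37.2 ± 4.46. AT5G59970 was lowest at 30.1 ± 2.02, with 32.2 in its highest library against 32.3 in the lowest of AT3G45930. The highest and the lowest copy differed 5.2-fold in mean level. The order was the same in aly1-2 total RNA, from 178 ± 18.9 for AT5G59690 down to 31.2 ± 3.44 for AT5G59970 (SD, n = 3). Per kb of coding sequence in place of exon, AT3G53730 moved to the fourth place, with 153 CPM per kb, and AT3G45930 to the last, with 82.7.

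**Figure D1:**
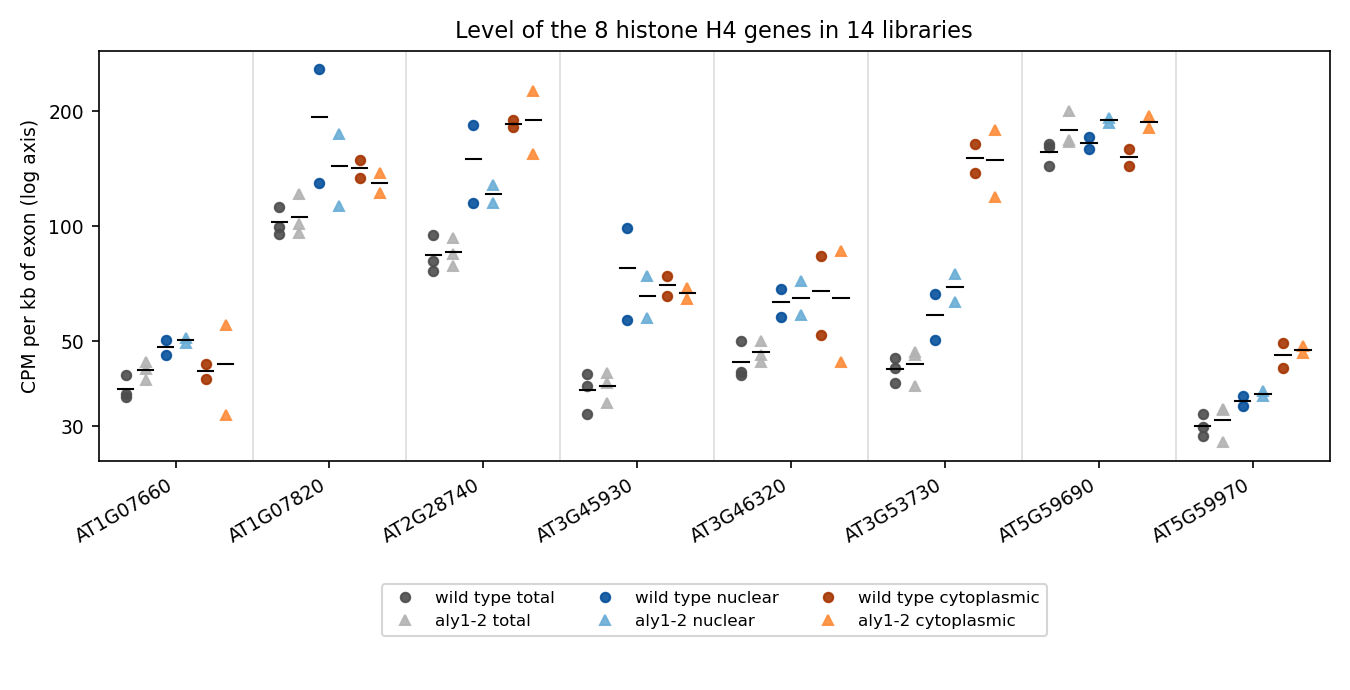
Level of each histone H4 gene in each of 14 libraries, as TMM-scaled CPM per kb of exon on a log axis; circles are wild type, triangles aly1-2, colours the fractions and black bars group means. In wild-type total RNA the means run from 30.1 for AT5G59970 to 157 for AT5G59690, and the cytoplasmic libraries of AT3G53730 lie above its nuclear and total libraries.

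In nuclear RNA of wild type, AT1G07820 was at 257 CPM per kb in the first library and at 130 in the second, while AT5G59690 was at 159 to 171. The first place of AT1G07820 there, with a mean of 193 ± 89.4 (SD, n = 2), thus rested on the first library. In aly1-2 nuclear RNA, AT5G59690 was first at 189 ± 4.13 (SD, n = 2). In cytoplasmic RNA, AT2G28740 was first in both genotypes, with 186 ± 5.29 (SD, n = 2) for wild type and 190 ± 51 (SD, n = 2) for aly1-2. The lead over AT5G59690 was free of overlap in wild type and overlapped in aly1-2. AT3G53730 took the fifth place in total RNA and the third in cytoplasmic RNA of both genotypes, at 151 ± 18.3 and 149 ± 41.6.

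The genotype comparison asks whether H4 mRNA accumulated to another level, or in another place, in aly1-2. No H4 gene passed the test in any fraction. In total RNA, 0 of 8 were called, against 0.475% of 20431 genes called in either direction. That share, 97 genes, moved to 16, 22 and 40 genes without wild-type total replicates 1, 2 and 3, and to 1639, 25 and 49 without aly1-2 total replicates 1, 2 and 3, while H4 stayed at 0 of 8. All 8 point estimates were positive but small, from 0.02 to 0.19 on the log2 scale with a median of 0.049, and the median of all genes was 0.01. In edgeR none (0 of 8) had an unadjusted p under 0.05, while 14.6% of all genes did, and DESeq2 also called 0 of 8. The 95% intervals of the 8 genes lay between -0.26 and 0.46, so that larger changes were outside each gene's interval. In bulk tissue, fewer cells that make H4 and less H4 mRNA per cell cannot be told apart.

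AT5G59690, the most abundant copy, had 197, 191 and 172 CPM in wild-type total RNA and 242, 199 and 196 in aly1-2. The highest aly1-2 library stood above the rest, and the genotypes overlapped. Its log2 fold change was 0.19 (SE 0.12, adjusted p = 0.505). AT1G07660 had 42.1, 41.2 and 47.0 CPM in wild type and 49.7, 45.3 and 50.4 in aly1-2, overlapping by a single pair of libraries, with a log2 fold change of 0.16 (SE 0.10, adjusted p = 0.496). AT1G07820 was at 157, 149 and 175 CPM against 193, 149 and 156, and AT3G53730 at 77.4, 70.4 and 81.7 against 84.2, 68.4 and 83.8. Both differed by less than the spread of their libraries, with log2 fold changes of 0.05 (SE 0.13) and 0.04 (SE 0.12). The other 4 genes had log2 fold changes of 0.02 to 0.08. The genotypes overlapped for 8 of 8 genes in total RNA, so none was free of overlap, against 20% of all genes tested. Summed over the 8 genes, H4 stood at 693 ± 27.4 CPM (SD, n = 3) for wild type and 738 ± 72.4 (SD, n = 3) for aly1-2.

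AT5G59970 also bears on the mutation by position, since it lies 3894 bases from ALY1 on chromosome 5. It had 40.7, 46.2 and 42.9 CPM in wild-type total RNA and 48.4, 47.2 and 38.6 in aly1-2, which overlapped, with a log2 fold change of 0.05 (SE 0.12, adjusted p = 0.878). Of 16 annotated genes within 20 kb of ALY1, 10 were tested in total RNA and 0 were called, with log2 fold changes from -0.16 to 0.65.

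In nuclear RNA 0 of 8 were called, against 0.0381% of 20971 genes, and in cytoplasmic RNA 0 of 8, against 0.0143%. In both fractions 0 of 8 had an unadjusted p under 0.05 in edgeR, and DESeq2 called 0 of 8. Log2 fold changes of aly1-2 against wild type ran from -0.39 for AT1G07820 to 0.27 for AT3G53730 in nuclear RNA and from -0.17 for AT1G07820 to 0.26 for AT5G59690 in cytoplasmic RNA. With 2 libraries a group these estimates were loose: the 95% intervals reached from -1.15 to 0.96 in nuclear and from -0.93 to 0.87 in cytoplasmic RNA. The genotypes did not overlap for 3 of 8 genes in nuclear RNA (AT1G07660, AT5G59690 and AT5G59970), against 27.5% of all genes, and for 2 of 8 in cytoplasmic RNA (AT1G07820 and AT5G59690), against 35.4%. AT5G59690 was the gene in both lists. On the CPM scale of the fraction libraries it had 80.3 and 89.0 in wild-type nuclear RNA and 101 and 98.2 in aly1-2, and 87.7 and 76.1 in wild-type cytoplasmic RNA and 92.8 and 103 in aly1-2. Its log2 fold changes were 0.23 (SE 0.28, adjusted p = 1) and 0.26 (SE 0.28, adjusted p = 0.819).

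The change of the nucleus to cytoplasm ratio in aly1-2 is the direct test of a shift between fractions. It was called for 0 of 8 H4 genes and for 0% of all 20971 genes, of which 705 had an unadjusted p under 0.05, and DESeq2 also called 0 genes. H4 estimates ran from -0.26 for AT2G28740 to 0.34 for AT3G53730, with 95% intervals between -1.29 and 1.31. With 2 libraries a group, shifts within each gene's interval stayed compatible with its estimate. The intervals are not detection limits, and the smallest shift that the test could have called was not determined.

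**Figure D2:**
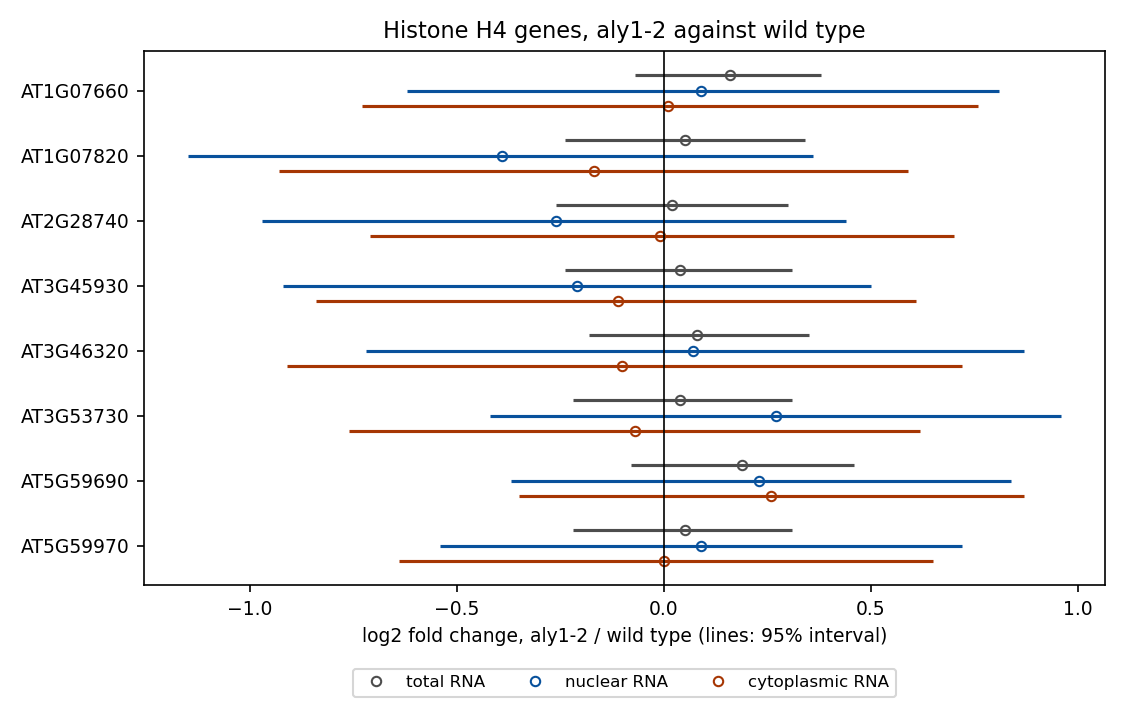
Log2 fold change of each histone H4 gene in aly1-2 against wild type, in total (grey), nuclear (blue) and cytoplasmic (brown) RNA, with lines for the 95% interval; open circles did not pass the test. All intervals include 0, and those of total RNA are the narrowest, lying between -0.26 and 0.46.

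Between nucleus and cytoplasm a single copy, AT3G53730, passed the test. On the CPM scale of the fraction libraries it had 38.7 and 52.7 in the wild-type nuclear libraries and 116 and 132 in the cytoplasmic ones. In aly1-2 it had 59.5 and 50.6 in the nucleus and 92.7 and 144 in the cytoplasm. Nuclear and cytoplasmic libraries did not overlap in either genotype, which also held for AT2G28740 and AT5G59970. How many of all genes were free of such overlap was not counted, so the lack of overlap is only a description of these libraries. AT3G53730 was 2.71-fold lower in the nucleus of wild type (log2 fold change -1.44, SE 0.33, 95% interval -2.14 to -0.74, adjusted p = 0.00935). In aly1-2 it was 2.14-fold lower (-1.10, SE 0.32, -1.80 to -0.40, adjusted p = 0.0314). It was the single gene called of 8 in each genotype, where 8.03% of all genes were called lower in wild type and 7.8% in aly1-2. In either direction, 19.1% and 18.9% of all genes were called, so 1 of 8 was not a higher share than these.

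The call for AT3G53730 needed most of the libraries. In wild type it was lost without nuclear replicate 1 (-1.22, adjusted p = 0.0681) or cytoplasmic replicate 2 (-1.24, adjusted p = 0.0831). In aly1-2 it was lost without any of its 4 libraries, with log2 fold changes from -0.77 to -1.35 and adjusted p-values of 0.0763, 0.193, 0.0546 and 0.206. The fold stayed negative in all of these. The cytoplasmic libraries also held 2101595 to 3240469 counts outside rRNA and organelles, and on the same TMM scale the pollen markers VGD1 and PPME1 summed to 233 to 338 CPM there against 777 to 2150 in the nucleus. Both markers had counts in every library. The part of these differences in the result was not tested.

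The other 7 copies did not pass the test in either genotype. AT5G59690 had 80.3 and 89.0 CPM in the wild-type nucleus and 87.7 and 76.1 in the cytoplasm, which overlapped, with a log2 fold change of 0.05 (SE 0.28). AT2G28740 had 89.5 and 57.6 CPM in the nucleus and 100 and 92.1 in the cytoplasm of wild type, without overlap. Its log2 fold change was -0.39 (SE 0.33, adjusted p = 0.43), and it was -0.64 (SE 0.33, adjusted p = 0.184) in aly1-2. AT1G07820 had 171 and 89.2 CPM in the wild-type nucleus, the first of which is the library that stood apart, and 96.7 and 103 in the cytoplasm. Its log2 fold change was 0.38 (SE 0.35, adjusted p = 0.48) in wild type and 0.16 (SE 0.35) in aly1-2. Over the 8 genes, 4 estimates were positive and 4 negative in each genotype, with medians of -0.058 and -0.0054, beside 0.05 and 0.11 over all genes. For each of the 7, the 95% interval reached no further than -1.35 or 1.14. The wild-type estimate of AT3G53730, -1.44, lay outside these. Its own interval, -2.14 to -0.74, overlapped those of AT2G28740 (-1.09 to 0.32), AT5G59970 (-1.10 to 0.17) and AT3G46320 (-0.97 to 0.64) in wild type. Its aly1-2 estimate, -1.10, lay inside the aly1-2 interval of AT2G28740 (-1.35 to 0.06). The aly1-2 interval of AT3G53730, -1.80 to -0.40, overlapped those of all 7 other copies. Differences between copies were not tested.

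**Figure D3:**
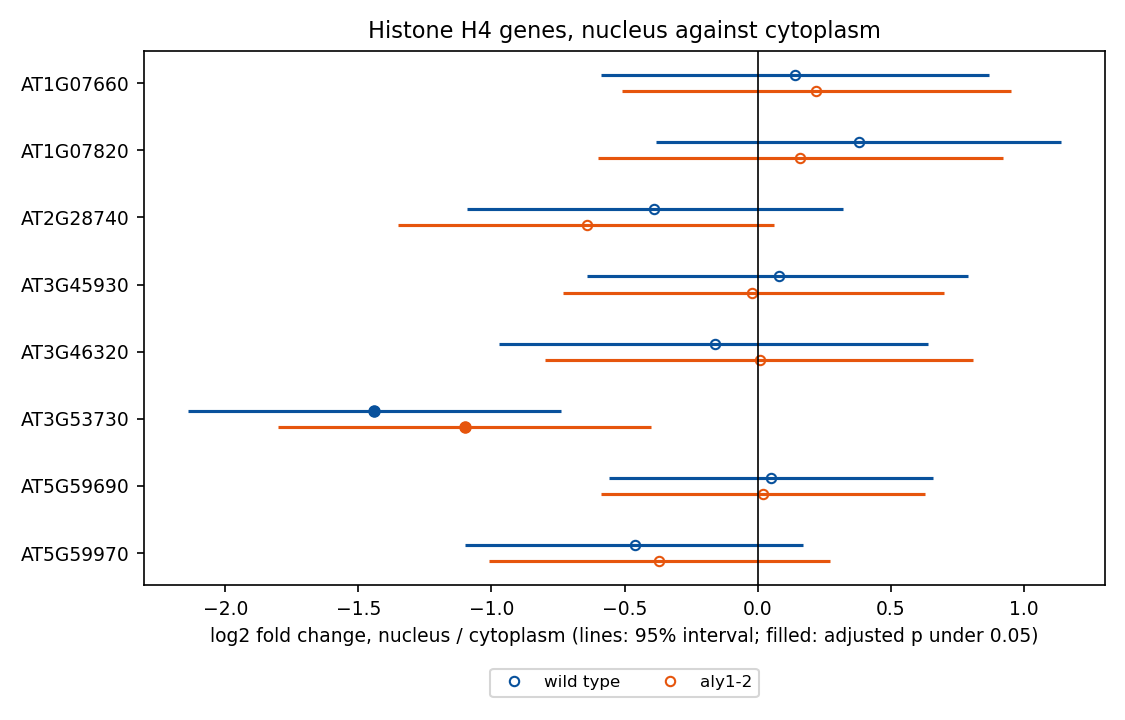
Log2 fold change of each histone H4 gene in the nucleus against the cytoplasm, in wild type (blue) and aly1-2 (orange), with lines for the 95% interval; filled circles had an adjusted p under 0.05. AT3G53730 is the single gene filled, at -1.44 and -1.10.

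The share of each copy among the summed H4 counts of a library shows the same contrast without any scaling between libraries. AT3G53730 made up 11.3%, 10.5% and 11.3% of H4 counts in wild-type total RNA and 10.3%, 9.93% and 11.9% in aly1-2. It made up 7.72% and 13.6% in wild-type nuclei and 12.9% and 13% in aly1-2 nuclei. In the cytoplasm it made up 22.7% and 24.8% in wild type and 20.6% and 24.8% in aly1-2. All 4 cytoplasmic libraries thus lay above all 10 others, and the first wild-type nuclear library was the lowest. The shares of a library add to 100%, so that a higher share of AT3G53730 goes with lower shares elsewhere. AT5G59690 had mean shares of 27.9% in total RNA (range 23.7% to 29.4%), 21.5% in the nucleus and 17.5% in the cytoplasm. AT1G07820 had mean shares of 22.7%, 25.8% and 18.4% in total, nuclear and cytoplasmic RNA, and AT2G28740 of 13.6%, 15.4% and 18.5%. The remaining 4 copies had mean shares between 4.21% and 7.86% in every fraction. Of these, AT1G07660 and AT3G45930 also had nuclear and cytoplasmic shares without overlap, lower in the cytoplasm. AT1G07660 had 4.92% to 6.53% in the nucleus and 3.51% to 4.9% in the cytoplasm, and AT3G45930 7.09% to 9.31% and 5.9% to 6.87%.

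**Figure D4:**
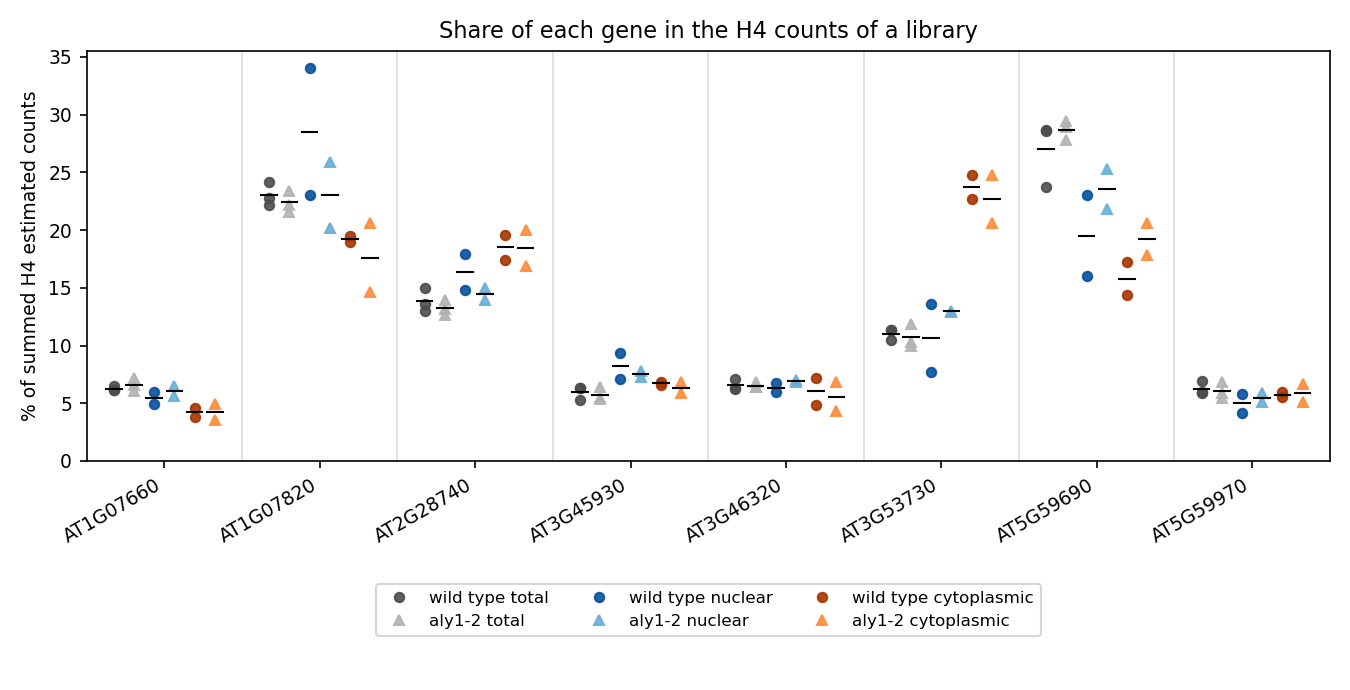
Share of each gene in the summed H4 estimated counts of a library, in percent, for 14 libraries; symbols and colours as in the plot of levels, with black bars for group means. The share of AT3G53730 is 20.6% to 24.8% in the cytoplasmic libraries and 7.72% to 13.6% in the nuclear ones.

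Each fraction was also set against total RNA in a fit of all 14 libraries, in which both fractions share the total libraries as reference. In cytoplasmic RNA, 4 of 8 H4 genes were higher than in total RNA in wild type, against 18.1% of 21728 genes, and 4 of 8 in aly1-2, against 17.3%. The same genes were called in both genotypes: AT3G53730, AT2G28740, AT3G45930 and AT5G59970. AT3G53730 stood at 48.2, 44.1 and 51.2 CPM in wild-type total RNA and at 157 and 186 in cytoplasmic RNA, on the scale of all 14 libraries. Its log2 fold change was 1.84 (SE 0.21, adjusted p = 3.62e-05) in wild type and 1.76 (SE 0.21, adjusted p = 6.06e-05) in aly1-2. AT2G28740 stood at 58.2, 54.7 and 67.8 CPM in wild-type total RNA and at 135 and 130 in cytoplasmic RNA, with log2 fold changes of 1.14 (SE 0.22, adjusted p = 0.00151) and 1.15 (SE 0.22, adjusted p = 0.00151). Both genes kept their calls when any single library was left out.

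AT3G45930 and AT5G59970 were less firm. AT3G45930 stood at 22.4, 26.5 and 28.5 CPM in wild-type total RNA and at 45.7 and 51.5 in cytoplasmic RNA, with log2 fold changes of 0.91 (SE 0.23, adjusted p = 0.00761) in wild type and 0.80 (SE 0.23, adjusted p = 0.0166) in aly1-2. Its call was lost without wild-type cytoplasmic replicate 2 (0.77, adjusted p = 0.0691), and in aly1-2 without total replicate 2 (0.74, adjusted p = 0.0606), cytoplasmic replicate 1 (0.80, adjusted p = 0.0654) or cytoplasmic replicate 2 (0.69, adjusted p = 0.0907). AT5G59970 stood at 25.4, 29.0 and 26.8 CPM against 38.2 and 44.6, with log2 fold changes of 0.61 (SE 0.18) in both genotypes and adjusted p-values of 0.0146 and 0.0166. Its call was lost with no filter on low counts (0.51 and 0.49, adjusted p = 0.16 and 0.191). It was also lost in wild type without total replicate 1 (0.57, adjusted p = 0.0579) or cytoplasmic replicate 2 (0.44, adjusted p = 0.142), and in aly1-2 without total replicate 3 (0.52, adjusted p = 0.0712), cytoplasmic replicate 1 (0.52, adjusted p = 0.105) or cytoplasmic replicate 2 (0.57, adjusted p = 0.0643). AT5G59690 had values of -0.04 (SE 0.17) and 0.07 (SE 0.17), with cytoplasmic libraries that overlapped the total ones in both genotypes. AT3G46320 was called without wild-type cytoplasmic replicate 1 (0.86, adjusted p = 0.0453) or aly1-2 cytoplasmic replicate 1 (0.82, adjusted p = 0.0425), from 0.62 and 0.47 with all libraries.

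In nuclear RNA, 1 of 8 was higher than in total RNA in wild type, against 3.71% of genes, and 0 of 8 in aly1-2, against 4.8%. All 8 estimates were positive in both genotypes, from 0.07 to 1.06 and from 0.09 to 0.78, with medians of 0.49 and 0.46 beside 0.10 and 0.04 over all genes. The gene called was AT3G45930, at 68.6 and 39.3 CPM in the nuclear libraries of wild type, with a log2 fold change of 1.06 (SE 0.23, adjusted p = 0.0159). The first of these libraries is the one that stood apart, and without it the value was 0.60 (adjusted p = 0.254). The call was also lost without wild-type total replicate 1 (0.97, adjusted p = 0.0955) or replicate 2 (1.08, adjusted p = 0.0724). The summed H4 level was 433 ± 17.4 CPM in wild-type total RNA (SD, n = 3), 646 ± 129 in nuclear and 719 ± 40.5 in cytoplasmic RNA (SD, n = 2 each). In aly1-2 it was 462 ± 38.8, 603 ± 77.2 and 733 ± 111. CPM are shares of the RNA sequenced, so a copy can be higher than total in both fractions, and amounts per cell were not measured.

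Across the 14 libraries, the distance of each copy from the sum of the other 7 was taken as the root mean square of the difference between centred log2(CPM + 1) profiles. AT5G59970 was the closest at 0.196, followed by AT3G46320 at 0.212 and AT3G45930 at 0.221. AT3G53730 was the farthest at 0.609, before AT5G59690 at 0.43. Many genes outside H4 were as close to the summed profile of all 8. Of 7572 with a mean log2 level of at least 4, 48 lay within the distance of AT5G59970. For AT3G46320, AT3G45930 and AT3G53730 the numbers were 94, 121 and 4592. AT3G53730 spanned 2.2 log2 units from its lowest to its highest library and AT5G59690 0.469, the widest and the narrowest of the 8. No close pair by sequence was the closest pair by profile. The smallest distance of any pair was 0.207, between AT1G07660 and AT5G59690. The close pairs stood at 0.3 for AT3G45930 with AT3G46320, 0.28 for AT5G59690 with AT5G59970 and 0.341 for AT1G07660 with AT1G07820. Of these genes, AT5G59970 alone had its sequence partner as its nearest copy, with AT3G46320 almost as near at 0.281. These are descriptions over libraries that share fraction and depth, in which 28 pairs were compared. Among 7572 other genes with a mean log2 level of at least 4, those most like the summed H4 profile were HTA10, a canonical H2A gene, at 0.128, HTA6, an H2A.W gene, at 0.136, AT1G06010 at 0.14, SAP7 at 0.148, CCT1 at 0.152, AT5G46030 at 0.154, GDC1, AT2G32710 and NFD1 at 0.158, and HTB2, an H2B gene, at 0.16.

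H4 was set beside the other histone genes by summed CPM per kb of exon. In wild-type total RNA the 8 H4 genes summed to 534 ± 20.7, the 5 H3.1 genes, which supply H3 at replication, to 278 ± 19.6, the 3 H3.3 genes, which supply H3 outside it, to 480 ± 22.7 and the 11 H2B genes to 662 ± 65.6 (SD, n = 3). The 8 H4 genes were thus above the H3.1 genes in every wild-type total library, where H4 ran from 519 to 558 and H3.1 from 256 to 292. In wild-type cytoplasmic RNA the sums were 856 ± 43.6 for H4 and 353 ± 31.7 for H3.1 (SD, n = 2). H4 genes lie within 20 kb of H2B genes at 4 places, each on the opposite strand: AT2G28740 with AT2G28720 at 1537 bases, AT1G07820 with HTB1 at 7299, AT3G45930 with HTB9 at 13278 and AT5G59970 with HTB4 at 17669.

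No gene of the histone, replication or mitosis lists was called by edgeR in a genotype comparison. Between nucleus and cytoplasm, 11.1% of all genes were called higher in the nucleus and 8.03% lower in wild type, and 11.1% higher and 7.8% lower in aly1-2. Of the histone lists, 1 of 11 H2B genes was called in wild type, AT1G08170, which was higher in the nucleus (2.17, SE 0.62, adjusted p = 0.028). In aly1-2, 4 of 11 H2B genes were lower in the nucleus, beside 7.8% of all genes: HTB4 (-1.64, adjusted p = 0.00954), HTB11 (-1.73, adjusted p = 0.0107), HTB9 (-1.52, adjusted p = 0.0156) and AT2G37470 (-1.19, adjusted p = 0.0282). The difference between genotypes was not called for any of them. Of 5 H3.1 genes, 0 were called in wild type and 1, AT5G10390, was higher in the nucleus of aly1-2 (1.36, adjusted p = 0.0457), beside 11.1% of all genes. HTR11, another H3 gene, was higher in the nucleus in both genotypes (1.80 and 2.70, adjusted p = 0.0195 and 0.00323), and H2AXA, an H2A.X gene, was lower in wild type (-1.08, adjusted p = 0.0389). None of the 4 canonical H2A, 3 H2A.W, 3 tested H2A.Z, 3 H3.3 or 3 H1 genes was called.

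Of 26 genes of replication and histone assembly, which act in the phase when H4 is made, 3 were higher and 2 lower in the nucleus of wild type, close to the shares of all genes, 11.1% and 8.03%. RNR1, the large subunit of ribonucleotide reductase, was higher (1.39, adjusted p = 0.0127), and so were MCM4, a subunit of the replicative helicase (1.40, adjusted p = 0.0438), and the histone chaperone gene SGA2, also named ASF1A (1.52, adjusted p = 0.0459). RNR2A, the small subunit of that reductase, was lower (-1.27, adjusted p = 0.0218), as was the cyclin gene CYCA3;2 (-1.61, adjusted p = 0.0225). In aly1-2, RNR1 (1.44, adjusted p = 0.0114) and FAS1, a subunit of chromatin assembly factor 1 (1.35, adjusted p = 0.0452), were higher and CYCA3;2 was lower (-1.73, adjusted p = 0.0162). Of 8 mitosis genes, 4 were lower in the nucleus of wild type, beside 8.03% of all genes: the B-type cyclin genes CYCB2;2 (-2.27, adjusted p = 0.00178), CYCB2;1 (-2.16, adjusted p = 0.00517) and CYC1BAT (-1.75, adjusted p = 0.0151), and SYP111, the cytokinesis syntaxin KNOLLE (-1.99, adjusted p = 0.00174). In aly1-2, 3 of the 8 were lower, beside 7.8% of all genes: SYP111 (-1.93, adjusted p = 0.00196), CYCB2;1 (-1.65, adjusted p = 0.0195) and CYCB2;2 (-1.35, adjusted p = 0.0241). The median of the mitosis list was -1.33 in wild type and -0.83 in aly1-2, beside -0.058 and -0.0054 for H4 and 0.05 and 0.11 for all genes.

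**Figure D5:**
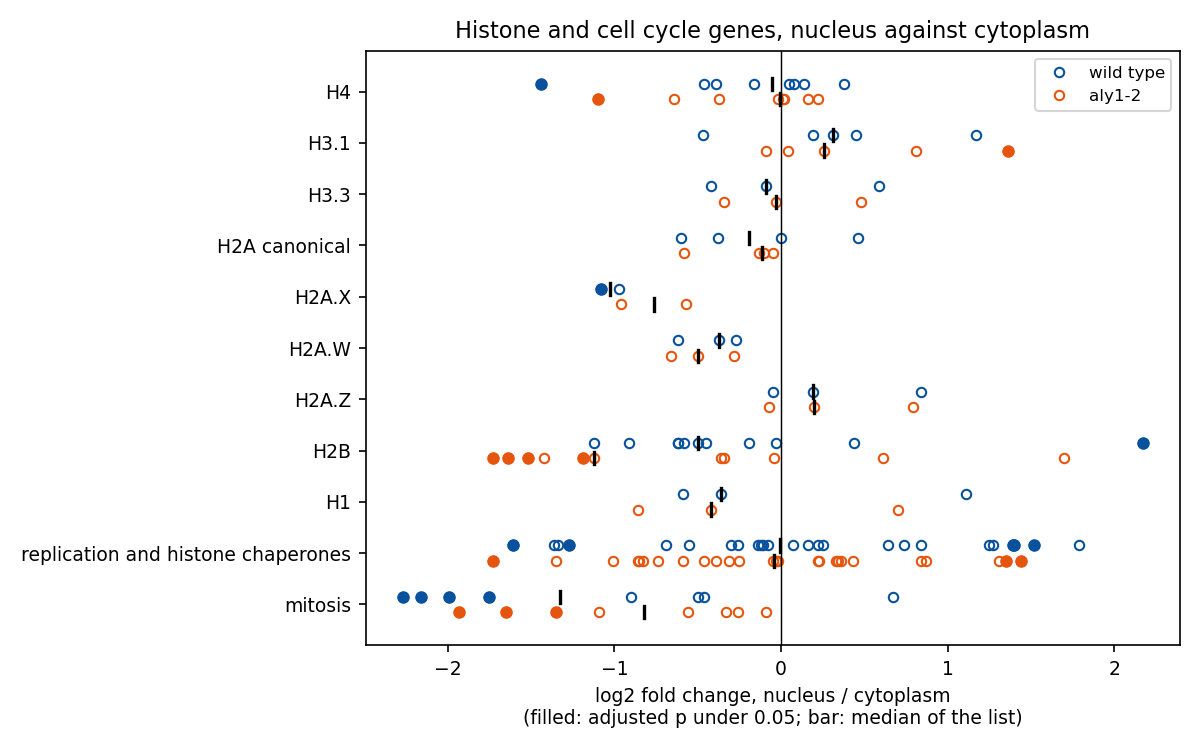
Log2 fold change in the nucleus against the cytoplasm for H4 and the other gene lists, 1 circle per gene, in wild type (blue) and aly1-2 (orange); filled circles had an adjusted p under 0.05 and black bars are list medians. The H4 medians are -0.058 and -0.0054, and the single filled H4 gene is AT3G53730.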

How the data were processed

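Poly(A)+ RNA of total, nuclear and cytoplasmic extracts of flower buds was selected with magnetic beads and made into strand-specific libraries, per the labels' protocols. The deposited values are estimated counts (expected counts) per gene, made by the authors; the submitters' processing notes name STAR 2.5.1b, featureCounts (Subread 1.6.1) and the build TAIR10. How shared reads were handled, and the strand setting of the counting, are not given in the sources used here. Whole numbers made up 86.4% to 92.7% of a library's values. The files hold no coordinates, so gene models and sequences came from RefSeq TAIR10.1, which matched 37051 of 37336 identifiers. Counts per transposable element were not used here.

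Estimated counts were rounded and filtered with filterByExpr. The filter asked for a level of about 10 counts in at least as many libraries as the smallest group held. It also asked for 15 counts over all libraries of a fit. Counts were then scaled by TMM and fitted in edgeR 4.0.16 under R 4.3.3. Its quasi-likelihood F-test was used, p-values were adjusted by Benjamini-Hochberg across all genes tested, and 0.05 was the threshold. All adjusted p-values in the report come from these fits unless DESeq2 is named. Total RNA was fitted with 6 libraries, the fractions with 8 and each fraction against total RNA with 14. SEs were taken as the absolute log2 fold change over the root of its F value. CPM were TMM-scaled within each fit. DESeq2 1.42.0, other size factors, filters, scalings, a replicate block and leaving out each library were tried as alternatives. The fitting was tested on simulated data. The members, lists and alternatives were chosen with earlier results of these data known. Named genes are all 8 H4 genes, ALY1 and genes within 20 kb of it, at most 4 called genes per direction of each list, and the 10 genes most like the summed H4 profile.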

Additional observations from a re-analysis of the deposited data

How the results depend on the processing

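Over single H4 genes and alternatives, 1312 results kept their direction and side of the threshold, 12 passed it in the alternative alone, 20 lost it and 0 reversed. The number of H4 genes called stayed at 0 in every genotype comparison and in the ratio comparison under every alternative. Leaving out 1 library gave 0 to 1 genes for nucleus against cytoplasm in wild type and in aly1-2, 0 to 3 for nuclear against total RNA in wild type and 0 to 1 in aly1-2, and 2 to 5 for cytoplasmic against total RNA in wild type and 2 to 4 in aly1-2. Where this left a group with 1 library, that library was assumed to vary like the other groups. For nuclear against total RNA, DESeq2 called 3 H4 genes in wild type and 2 in aly1-2, and no filter on low counts gave 3 in wild type, against 1 and 0. The cause was not tested. The highest and lowest H4 levels differed 4.52-fold per kb of coding sequence, against 5.2-fold per kb of exon, since the exon lengths of the copies differ. Over all genes, the genotype comparison in total RNA called 97, against 543 with DESeq2, 428 with no filter and 20 with the replicate block. The nuclear one called 8, against 29, 143 and 19, and the cytoplasmic one 3, against 35, 175 and 9. In one fit of all 14 libraries they called 41, 17 and 204. Leaving out 1 library moved them to 16 (wild-type total replicate 1) up to 1639 (aly1-2 total replicate 1), to 3 (wild-type nuclear replicate 1) up to 157 (aly1-2 nuclear replicate 1), and to 0 (any cytoplasmic library) up to 52 (aly1-2 nuclear replicate 2), and the ratio comparison, at 0, to 0 to 3. For nucleus against cytoplasm, all-gene calls were 4003 in wild type (1610 to 4168 with a library left out) and 3974 in aly1-2 (1767 to 3997). For nuclear against total RNA they were 871 (316 to 1621) and 1108 (232 to 1320). The shares of all genes called thus move with single libraries. The replicate block changed no H4 count: it gave 0 in total, nuclear, cytoplasmic and ratio comparisons, 1 and 1 for nucleus against cytoplasm, 1 and 0 for nuclear against total and 4 and 4 for cytoplasmic against total RNA. The labels tie a replicate number to no shared plant or day. Deviations of same-numbered libraries correlated at -0.24 to 0.7 over 19 pairs, with a median of 0.08, against -0.055 over 30 pairs with different numbers. The 6 same-numbered pairs between fractions of aly1-2 stood at 0.17 to 0.7, while total RNA of the genotypes gave -0.1, -0.24 and 0.26. These pairs are not separate evidence, since the deviations in a group of 2 libraries are exact opposites. In aly1-2, total replicate 3 with nuclear replicate 2, which differ in number, stood at 0.53. Whether libraries were paired cannot be told from these values. The precision is limited by 2 libraries per fraction group, by 2101595 to 3240469 counts outside rRNA and organelles in cytoplasmic libraries, and by reads shared between near-identical copies.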
